A study of Mus musculus with 24 samples.

Results

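Elastic fibre and microfibril genes were followed in mouse liver as the gene rows whose symbol is Eln, Fbn1, Fbln1, Fbln2, Fbln5, Efemp1, Efemp2, Mfap2, Mfap4 or Mfap5, which are 10 of 56205 rows in the count table. All 10 were found, and 9 had enough reads to be tested, Mfap5 being the exception. Poly(A) RNA was sequenced from whole livers of 24 C57BL/6J mice that had eaten either a diet lacking methionine and choline (MCD, n = 12) or a control diet (n = 12) for 20 weeks. The series describes males and females in equal number on each diet, but no sex, litter or run is given for a single library, so each diet was treated as 1 group. No genetic change or drug is named for either group. In the study's methods the MCD diet appears with a high fat content, whereas its results speak of a fat-rich diet low in choline (CDAHFD), and the name used by the labels is kept here. The libraries were not described beyond being separate samples of separate animals, so p-values measure the spread between these animals.

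Elastic fibres are the extracellular cables that let a tissue stretch and recoil. Tropoelastin, the product of Eln, is crosslinked into an elastin core, which is laid down on a scaffold of microfibrils built mainly from fibrillin. Short fibulins carry tropoelastin and crosslinking enzymes to that scaffold, microfibril-associated proteins bind along it, and in the liver such fibres are normally found around portal tracts, in vessel walls and in the capsule, and they accumulate in fibrous septa.

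Levels are given as CPM, counts scaled to a common library size, here library sizes corrected by the trimmed mean of M-values (TMM). Control libraries held 16793207 to 24915175 counts and MCD libraries 16388650 to 24577848. The TMM-corrected sizes ran from 13213368 to 27513465, so a floor of 3 counts stood for 0.109 to 0.227 CPM, which covers counting error only. TMM factors were lower in every control library (0.642 to 0.973) than in any MCD library (1.07 to 1.26). With total counts alone, the all-gene median of the log2 fold change moved from -0.0999 to 0.268, and every tested member rose further. The labelled tissue was checked on 7 hepatocyte markers, all of which were detected, with Alb at 79836 ± 18360 CPM (SD, n = 12) in control livers.

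The first question was whether these genes differed between the diets. All 9 tested members rose on the MCD diet and 0 fell, at a false discovery rate (FDR) of 0.01 or less with an absolute log2 fold change above 0.5 (edgeR quasi-likelihood test, Benjamini-Hochberg adjustment over 14109 genes). Over all tested genes, 19.2% rose and 19.1% fell by the same rule. DESeq2 and limma-voom also called 9 members higher and 0 lower, and at an unadjusted p under 0.05 the edgeR count of lower members was again 0. The median log2 fold change of the 9 members was 1.83, beside -0.0999 over all tested genes, and the members ran from 0.66 for Fbln2 to 4.06 for Mfap2. In 5 members, Eln, Fbn1, Efemp1, Efemp2 and Mfap4, every MCD liver lay above every control liver, a separation seen in 9.5% of all tested genes. In the other 4 the diets overlapped. All members are annotated as protein-coding genes, and their positions are given on GRCm38. The libraries are from whole liver, in which a larger number of cells of one type and more RNA per cell cannot be told apart.

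**Figure D1:**
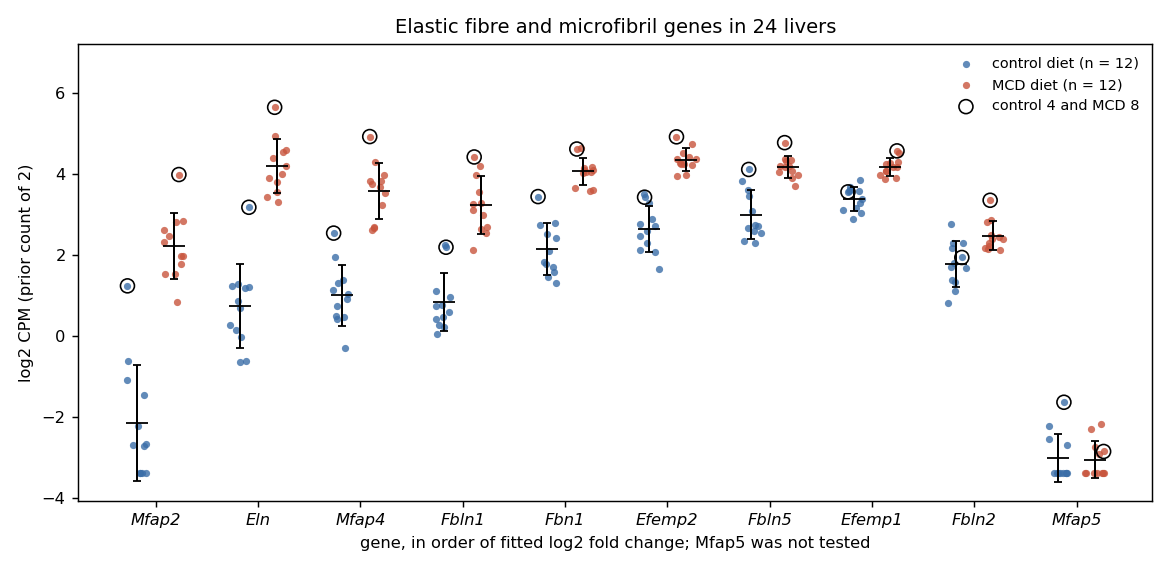
Level of each member in each liver as log2 CPM with a prior count of 2 (y axis), by gene (x axis, in order of fitted fold change), with blue points for the 12 control and red points for the 12 MCD livers, and bars for the mean and SD. Control 4 and MCD 8 are ringed: control 4 held the highest control level of 5 of the 9 tested members and MCD 8 the highest MCD level of 8 of them, while Mfap5 stayed near the bottom of the scale in both diets.

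Eln (ENSMUSG00000029675, chr5:134702593-134747323, minus strand) encodes tropoelastin, the subunit of the elastic core. Its level was 0.546, 1.62 and 8.94 CPM (lowest, median and highest of 12) in control livers and 9.87, 17.0 and 49.8 CPM in MCD livers. The diets did not overlap, although a single control liver, control 4, came close to the lowest MCD liver: the next control stood at 2.33 CPM. The log2 fold change was 3.26 (SE 0.37, 95% interval 2.49 to 4.02, FDR 2.86e-08), a 9.55-fold rise. Behind these values lay 8 to 158 reads per control library and 211 to 1169 per MCD library.

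Fbn1 (ENSMUSG00000027204, chr2:125300594-125507993, minus strand) encodes fibrillin-1, the main structural protein of microfibrils. Control livers had 2.39, 3.81 and 10.7 CPM (lowest, median, highest) and MCD livers 11.8, 16.7 and 24.8 CPM. The groups were separate, again with control 4 nearest to the MCD range. Fbn1 rose by 1.83 on the log2 scale (SE 0.20, 95% interval 1.41 to 2.25, FDR 2.06e-08), or 3.56-fold. A gene on the opposite strand, Gm9913, overlaps 20.1% of the Fbn1 exon bases and had 0.0141 CPM in control and 0.0287 CPM in MCD livers.

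The microfibril-associated genes showed both the widest change and the lowest signal of the set. Mfap2 (ENSMUSG00000060572, chr4:141010418-141015984, plus strand) encodes MAGP-1, a small glycoprotein bound to fibrillin microfibrils. It was at 0 in 4 of the 12 control livers, with a median of 0.0599 CPM and a highest value of 2.26 CPM in control 4. In MCD livers it stood at 1.69, 4.36 and 15.7 CPM (lowest, median, highest), and 11 of 12 MCD livers lay above all controls. The second highest control had 0.560 CPM, so the overlap came from control 4. The log2 fold change of 4.06 (SE 0.56, 95% interval 2.91 to 5.20, FDR 5.88e-07) was reached by 49 tested genes, Mfap2 included. The control side of this fold rested on 66 reads in all, 40 of them in control 4, and the log2 fold change was 5.23 without that library and 5.24 by limma-voom.

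Mfap4 (ENSMUSG00000042436, chr11:61485431-61488900, plus strand) encodes a fibrinogen-domain protein that binds elastin and fibrillin. Control livers had 0.716, 1.87 and 5.71 CPM and MCD livers 5.98, 13.1 and 30.1 CPM (lowest, median, highest). The highest control and the lowest MCD liver were close together but the groups did not cross. The log2 fold change was 2.59 (SE 0.29, 95% interval 1.99 to 3.19, FDR 2.57e-08), or 6.03-fold. Part of Mfap4, 4.63% of its exon bases, overlaps Mapk7 on the other strand, whose level was 3.65 CPM in control and 7.81 CPM in MCD livers. Mfap5 (ENSMUSG00000030116, chr6:122505845-122529290, plus strand), which encodes MAGP-2, gave 8 reads over all control and 9 reads over all MCD libraries, with at most 4 in 1 library, and was at 0 in 8 control and 7 MCD libraries. At this depth no difference in Mfap5 could be detected, and no fold is given.

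The short fibulins with roles in elastic fibre assembly, Fbln5, Efemp1 and Efemp2, all rose, with log2 fold changes from 0.78 to 1.64. Efemp2 (ENSMUSG00000024909, chr19:5473954-5482517, plus strand) encodes fibulin-4, which brings lysyl oxidase to tropoelastin. Its level was 3.06, 6.18 and 11.2 CPM in control and 15.3, 19.8 and 30.0 CPM in MCD livers, with no overlap. It rose by 1.64 on the log2 scale (SE 0.17, 95% interval 1.28 to 1.99, FDR 8.00e-09). Its exons share 173 bases with Mus81 on the opposite strand, which had 11.6 CPM in control and 10.9 CPM in MCD livers. Fbln5 (ENSMUSG00000021186, chr12:101746565-101819055, minus strand) encodes fibulin-5, which tethers tropoelastin to microfibrils and to cell-surface integrins. Control livers ranged from 4.84 through a median of 6.49 to 17.1 CPM, and MCD livers from 12.8 through 18.1 to 27.2 CPM. Only 7 of 12 MCD livers were above all controls, and the log2 fold change was 1.08 (SE 0.19, 95% interval 0.69 to 1.46, FDR 1.68e-05).

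Efemp1 (ENSMUSG00000020467, chr11:28853204-28926743, plus strand) encodes fibulin-3, a relative with a smaller known part in elastin assembly. It had 7.29, 10.95 and 14.3 CPM in control and 14.5, 17.9 and 23.6 CPM in MCD livers (lowest, median, highest). The highest control and the lowest MCD liver were nearly equal, yet the groups did not cross. Efemp1 varied least among animals: its coefficient of variation was 20.2% in control and 15.8% in MCD livers, against 107% and 55.0% for Eln. Efemp1 rose by 0.78 on the log2 scale (SE 0.11, 95% interval 0.57 to 1.0, FDR 5.06e-07).

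The longer fibulins of the set are Fbln1 and Fbln2. Fbln1 (ENSMUSG00000006369, chr15:85205949-85286535, plus strand) encodes fibulin-1, found in elastic fibres and basement membranes. Its control levels were 0.932, 1.49 and 4.62 CPM and its MCD levels 4.23, 9.05 and 21.2 CPM. Of the MCD livers, 11 lay above all controls, and control 12 and control 4 (4.62 and 4.47 CPM) made the overlap with the lowest MCD liver. Fbln1 rose by 2.44 on the log2 scale (SE 0.30, 95% interval 1.83 to 3.05, FDR 8.69e-08). Fbln2 (ENSMUSG00000064080, chr6:91212455-91272540, plus strand), which encodes fibulin-2, a partner of fibrillin and elastin in vessel walls, had 1.65, 3.28 and 6.67 CPM in control and 4.25, 5.18 and 10.1 CPM in MCD livers. The ranges overlapped, with 8 of 12 control livers below all MCD livers and 3 of 12 MCD livers above all controls. Its log2 fold change of 0.66 (SE 0.19, 95% interval 0.27 to 1.05, FDR 0.00390) was the smallest of the set, and with control 4 and MCD 8 set aside it was 0.60 at an FDR of 0.00979.

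Promoter sequence was available for 7 members from RefSeq (GRCm38.p6), as 12 windows that in part overlap within a gene. Eln, Mfap4 and Mfap5 were not matched. The 250 bases before the annotated start were searched on both strands for an AP-1 site (TGANTCA), a TEAD site (GGAATG), an SP1 box (GGGCGG), an NF-Y box (CCAAT) and a TATA box (TATAAA). Windows are shown for Mfap2, which rose most, and for Efemp1 and Efemp2, which had the highest levels per kilobase in control livers, with matched letters in capitals. Where a gene had several windows (2 for Mfap2, 3 for Efemp2), the most upstream one is shown. All 3 lie on the plus strand, at chr4:141010174-141010423, chr11:28852955-28853204 and chr19:5473696-5473945.
Mfap2: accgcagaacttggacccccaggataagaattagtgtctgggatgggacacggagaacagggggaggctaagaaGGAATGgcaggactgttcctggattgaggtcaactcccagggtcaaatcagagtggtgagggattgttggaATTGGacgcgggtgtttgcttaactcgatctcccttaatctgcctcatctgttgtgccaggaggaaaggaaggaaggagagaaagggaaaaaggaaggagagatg
Efemp1: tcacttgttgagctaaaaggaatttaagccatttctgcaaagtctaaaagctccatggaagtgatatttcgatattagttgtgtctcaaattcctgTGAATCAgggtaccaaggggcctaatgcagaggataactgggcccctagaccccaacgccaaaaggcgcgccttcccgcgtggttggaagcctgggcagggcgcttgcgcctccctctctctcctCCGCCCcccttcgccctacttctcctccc
Efemp2: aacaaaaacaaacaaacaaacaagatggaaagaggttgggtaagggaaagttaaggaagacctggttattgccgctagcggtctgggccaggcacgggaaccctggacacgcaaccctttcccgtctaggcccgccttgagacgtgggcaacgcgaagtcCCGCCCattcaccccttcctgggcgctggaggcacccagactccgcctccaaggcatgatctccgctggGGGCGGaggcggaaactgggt
The Mfap2 window shown held a TEAD match starting 176 bases and an NF-Y match starting 105 bases before the start. The Efemp1 window held an AP-1 match 154 bases and an SP1 match 29 bases before it, and the Efemp2 window shown an SP1 match at each of 90 and 21 bases. The other Mfap2 window held 2 SP1 matches and neither a TEAD nor an NF-Y match, and the other Efemp2 windows, which overlap, held 5 SP1 matches each. The SP1 box was present in 9 of the 12 member windows and in 32.7% of all 32851 windows. Counted once a gene it was present in 7 of 7 members and in 35.4% of 27025 genes, with 12 windows for the 7 members. The corresponding counts were 1 member window for AP-1 (6.75% of all windows), 1 for TEAD (12.6%), 2 for NF-Y (33.8%) and 0 for the TATA box (12.4%). The windows of Fbn1 and Fbln2 lie wholly within annotated exons. A match describes letters only, and no binding was measured.

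The second question was whether the members kept their proportions. Counts were set against Fbn1 in the same library, as log2 of the ratio with 0.5 added to each count, which needs no scaling of libraries. Of 8 members compared with Fbn1, 6 changed their ratio (two-sided permutation test with 100000 resamples, Benjamini-Hochberg adjusted p of 0.05 or less over 8 tests): 3 higher and 3 lower. A change relative to Fbn1 was the rule among all genes, of which 3.39% were higher and 89.2% lower by the same test adjusted over 14108 genes. The same 3 and 3 members passed with that adjustment. Elastin rose relative to fibrillin-1, from a mean log2 ratio of -1.46 ± 0.57 (SD, n = 12) to 0.13 ± 0.63, a difference of 1.59 (95% interval 1.08 to 2.10, adjusted p = 6e-05), and 9 of 12 MCD livers exceeded every control. Mfap2 rose relative to Fbn1 by 3.28 (2.12 to 4.43, adjusted p = 6e-05). With 5 added to each count that difference was 1.5 (0.88 to 2.12, adjusted p = 0.00018). Mfap4 rose relative to Fbn1 by 0.68 (0.16 to 1.2, adjusted p = 0.019). Fbln2, Efemp1 and Fbln5 fell relative to Fbn1, with differences of -1.22 (-1.58 to -0.87, adjusted p = 6e-05), -1.14 (-1.47 to -0.82, adjusted p = 6e-05) and -0.76 (-1.08 to -0.44, adjusted p = 0.00024). No change was called for Efemp2, at -0.23 (-0.56 to 0.11, adjusted p = 0.168), or for Fbln1, at 0.51 (-0.12 to 1.13, adjusted p = 0.12). Without control 12 the Fbln1 difference was 0.67 with an adjusted p of 0.0208. Among the 8 ratios to Fbn1, that of Efemp1 had the smallest SD in MCD livers, 0.20 on the log2 scale.

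The same ratios were taken to Col1a1, the type I collagen chain of scar tissue, which rose by 2.88 on the log2 scale (SE 0.35). Of 9 members, 7 fell relative to Col1a1 and 1 rose, also when adjusted over all tested genes. By that test 96.6% of all tested genes fell relative to Col1a1 and 0.546% rose, so a fall is not particular to the members. The falls were -2.60 for Fbln2, -2.52 for Efemp1, -2.14 for Fbln5, -1.61 for Efemp2 and -1.38 for Fbn1 (adjusted p = 3.6e-05 for each over 9 tests), then -0.87 for Fbln1 and -0.70 for Mfap4 (adjusted p = 0.0254 for each). In Fbln2, Fbln5 and Efemp1 the ratio in every one of the 12 MCD livers was below that in every control. The share of all genes with such a separation was not counted, so it is not shown to be particular to these members. Eln was the member without a called change: its log2 ratio to Col1a1 was -3.77 ± 0.72 (SD, n = 12) in control and -3.57 ± 0.62 in MCD livers, a difference of 0.21 with a 95% interval from -0.36 to 0.78 (adjusted p = 0.456). Mfap2 rose relative to Col1a1 by 1.90 (0.94 to 2.86, adjusted p = 0.000435), but the value depended on its near-empty controls: with 5 added to each count in place of 0.5 it was 0.0665 (adjusted p = 0.940). For every member compared, the SD of the ratio to Col1a1 was smaller among MCD than among control livers. It was 0.78 in control and 0.19 in MCD livers for Fbn1, 1.01 and 0.16 for Efemp1, and 0.82 and 0.18 for Efemp2.

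**Figure D2:**
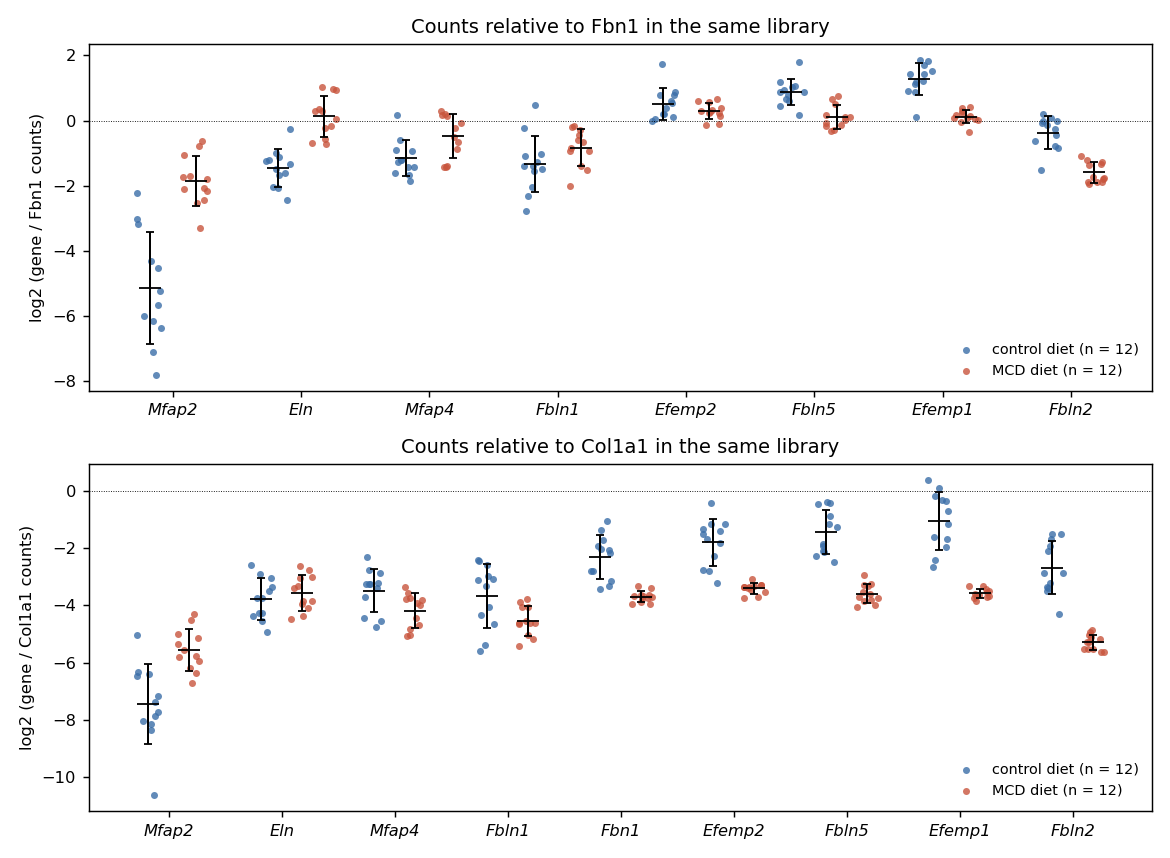
Log2 ratio of each member's counts to those of Fbn1 (top, y axis) or Col1a1 (bottom, y axis) in the same library, by gene (x axis), with 12 control (blue) and 12 MCD (red) livers and bars for the mean and SD. Relative to Fbn1, Mfap2, Eln and Mfap4 moved up while Fbln5, Efemp1 and Fbln2 moved down; relative to Col1a1, the Eln points of the diets overlap.

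Levels of different genes were compared only per length, as CPM per kilobase of the union of annotated exons. In control livers Efemp1 was highest at 5.18 ± 1.05 CPM per kilobase (SD, n = 12), followed by Efemp2 (1.75), Fbln5 (1.24), Mfap4 (1.14), Fbln2 (0.559), Fbln1 (0.443), Fbn1 (0.391), Eln (0.260) and Mfap2 (0.259). In MCD livers Efemp1 was again highest at 8.93 ± 1.41, followed by Mfap4 (6.88), Efemp2 (5.45), Mfap2 (4.43), Fbln5 (2.63), Eln (2.50), Fbln1 (2.38), Fbn1 (1.40) and Fbln2 (0.889). With these lengths Mfap2 went from the 9th to the 4th place and Fbln2 from the 5th to the 9th. Control 4 carried much of the Mfap2 level in control livers, which was 0.113 CPM per kilobase without it. Neighbouring pairs were taken from the orders in the same libraries that were then tested, so the p-values do not test those orders independently. Of 16 such pairs, 9 differed beyond their spread (exact sign-flip permutation test within libraries, Benjamini-Hochberg adjusted p of 0.05 or less). The pairs that did not were Fbln5 and Mfap4, Fbln2 and Fbln1, Fbln1 and Fbn1, and Eln and Mfap2 in control, and Mfap4 and Efemp2, Fbln5 and Eln, and Eln and Fbln1 in MCD livers. The order depended on the length used. With the longest transcript as length, Eln stood 6th in control and 4th in MCD livers, and in MCD livers Efemp2 stood 2nd, Mfap4 3rd and Mfap2 5th, where Mfap2 and the next gene, Fbln5, were not called different (adjusted p = 0.0758, exact sign-flip permutation test). Summed over the members, the level was 11.2 ± 3.69 CPM per kilobase in control and 35.5 ± 11.6 in MCD livers. Efemp1 made up 48.1% of that sum in control and 26.4% in MCD livers, Mfap2 1.63% and 11.7%, Mfap4 9.60% and 18.6%, and Eln 2.04% and 6.76%. Without control 4 the Mfap2 share in control livers was 0.905%.

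**Figure D3:**
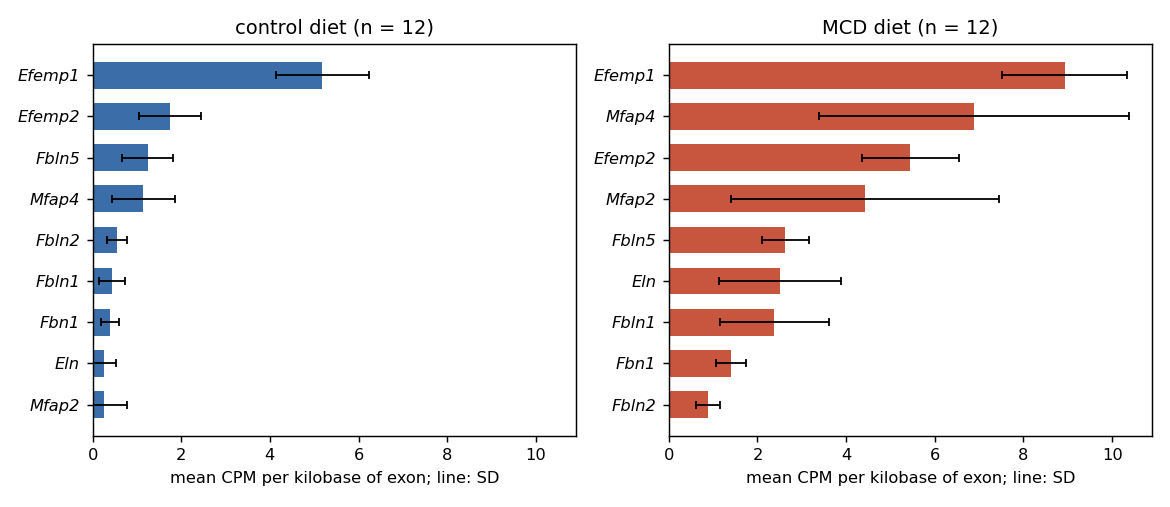
Mean level of each tested member in CPM per kilobase of exon (x axis) by gene (y axis, highest at the top) in 12 control livers (left, blue) and 12 MCD livers (right, red), with lines for the SD, cut at 0. Efemp1 was highest in both diets, and with exon-union length Mfap4 and Mfap2 stood 2nd and 4th in MCD livers.

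The members were next compared among animals of the same diet. Control 4 held the highest control level of 5 of the 9 tested members and the first or second highest of 7, and MCD 8 held the highest MCD level of 8 members. Pearson's r of log2 CPM was positive for all 36 pairs in each diet, with a median of 0.672 in control and 0.701 in MCD livers, and 22 pairs in each diet passed an adjusted p of 0.05 (two-sided permutation test with 100000 resamples, Benjamini-Hochberg over 72 relations). By Spearman's rho 8 control and 11 MCD pairs passed. The lowest r among the pairs that passed was 0.632 in control and 0.663 in MCD livers, values reached by 8.69% and 2.73% of all pairs of tested genes. Pairs share a library and its scaling, and members are not independent of each other. Each diet held males and females with no sex given per library, and no correlation was adjusted for sex.

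With the 2 livers farthest from the median of the first gene left out of each pair, which leaves 10 livers over a narrower range, 0 pairs passed in either diet. The median r was then 0.519 in control and 0.323 in MCD livers, and r was lower than before in 27 of 36 control and 34 of 36 MCD pairs. Without control 4 alone 11 control pairs passed, without control 10 alone 13, and without MCD 8 alone 8 MCD pairs. The pairs named next were chosen after their values were seen. The highest was Eln with Fbn1 in control livers (r = 0.898, adjusted permutation p = 0.00403, rho = 0.867, adjusted permutation p = 0.00756), where r was 0.769 (adjusted permutation p = 0.1) without control 1 and control 4. In MCD livers it was Eln with Mfap2 (r = 0.874, adjusted permutation p = 0.00403, rho = 0.867, adjusted permutation p = 0.00662), where r was 0.705 (adjusted permutation p = 0.127) without MCD 6 and MCD 8. The lowest were Fbln1 with Fbln2 in control livers (r = 0.0980) and Eln with Efemp1 in MCD livers (r = 0.294).

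**Figure D4:**
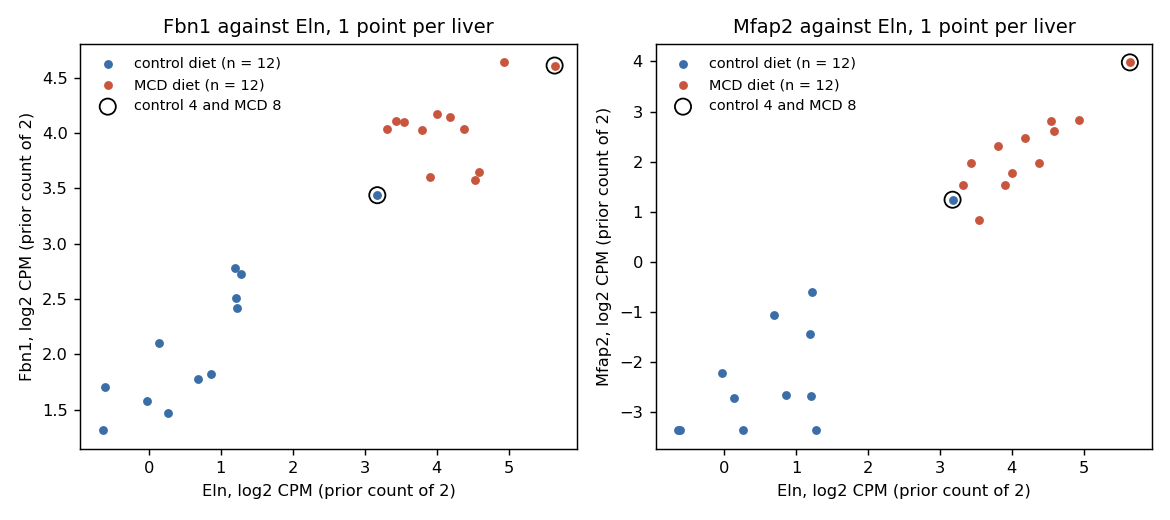
Fbn1 (left, y axis) and Mfap2 (right, y axis) against Eln (x axis) in each liver, all as log2 CPM with a prior count of 2, with 12 control livers in blue, 12 MCD livers in red, and control 4 and MCD 8 ringed. Control 4 lies beside the lowest MCD livers and away from the other controls, and MCD 8 lies at the upper right of the MCD livers in both panels.

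For each tested member the 2 genes most alike over the 24 livers were taken by Pearson's r of log2 CPM after subtracting each diet's mean, among genes with a mean of at least 1 CPM. These values are descriptive and were not adjusted for sex. Nearest to Eln were Fbln7 (r = 0.860), a further fibulin, and Bgn (0.859), the matrix proteoglycan biglycan. Nearest to Fbn1 were Col4a2 (0.905), a chain of basement membrane collagen, and Sparc (0.902), a collagen-binding matricellular protein. Mfap4 was nearest to Gsn (0.890), the actin-severing gelsolin, and Cygb (0.864), a globin known from stellate cells. Efemp2 was nearest to Nfkb2 (0.935) and to Pcolce (0.928), an enhancer of procollagen processing. Fbln5 was nearest to Adamts5 (0.907), an aggrecanase, and Tmem119 (0.897). Mfap2 was nearest to Fjx1 (0.852) and Chpf (0.850), a chondroitin-polymerizing factor, and Fbln1 to Ier5l (0.868) and Krt19 (0.826), a bile duct keratin. Efemp1 was nearest to B4galt2 (0.893) and Matn2 (0.864), a matrilin, and Fbln2 to Phldb1 (0.839) and Megf6 (0.820).

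Genes that act on elastic fibres were counted in 7 lists with 45 genes, of which 40 were tested. By the same rule 25 rose, 4 fell and 11 did not pass, where 19.2% of all tested genes rose and 19.1% fell. The median log2 fold change of the 40 was 1.23. Among the other fibrillins and fibulins, 2 of 4 rose and 1 fell. Fbn2, the fibrillin of developing tissue, had 0 to 0.509 CPM in control and 2.36 to 8.47 CPM in MCD livers and rose by 5.38 on the log2 scale (SE 0.45, FDR 1.54e-10), or by 6.25 without control 4. Fbln7, encoding fibulin-7, rose by 1.07 (SE 0.21, FDR 8.55e-05), and Hmcn1, encoding a giant basement membrane fibulin, had a log2 fold change of -0.79 (SE 0.20, FDR 0.00139), which did not pass with total counts as the only scaling (-0.47, FDR 0.0777).

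Latent TGF-beta binding proteins are fibrillin relatives found on microfibrils, most of which hold the latent growth factor there, and 3 of 4 rose. Ltbp2, whose product does not bind latent TGF-beta, ran from 0.884 to 5.26 CPM in control and from 25.6 to 93.6 CPM in MCD livers (log2 fold change 3.93, SE 0.27, FDR 6.02e-12), and Ltbp3 rose by 2.42 (SE 0.20, FDR 1.54e-10). Ltbp4, named after its values were seen, ran from 60.5 to 156 CPM in control and from 72.8 to 149 CPM in MCD livers, and the 95% interval of its log2 fold change was -0.28 to 0.28. Lysyl oxidases crosslink tropoelastin and collagen, and 4 of 5 rose. Lox ran from 0.112 to 1.30 CPM in control and from 3.26 to 5.99 CPM in MCD livers (log2 fold change 3.40, SE 0.29, FDR 2.22e-10), and Loxl1, the family member tied to elastin renewal, rose by 2.73 (SE 0.26, FDR 1.12e-09).

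Of the emilins and multimerins, which are glycoproteins at the surface of elastic fibres and vessels, all 3 tested genes passed. Emilin1 rose by 1.24 (SE 0.15, FDR 4.34e-08) and Emilin2 by 1.30 (SE 0.15, FDR 2.30e-08), whereas the endothelial Mmrn2 had a log2 fold change of -1.08 (SE 0.14, FDR 1.28e-07). Of 9 tested ADAMTS and ADAMTS-like genes, several of whose products bind fibrillin, 5 rose and 1 fell. Adamtsl2 ran from 9.96 to 54.2 CPM in control and from 80.5 to 191 CPM in MCD livers (log2 fold change 2.49, SE 0.23, FDR 6.74e-10), Adamtsl1 rose by 2.01 (SE 0.22, FDR 1.63e-08), and Papln had a log2 fold change of -1.46 (SE 0.18, FDR 1.46e-07).

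Proteases able to cleave elastin rose in 6 of 7 tested cases. Mmp12, macrophage elastase, ran from 0.477 to 15.8 CPM in control and from 161 to 415 CPM in MCD livers and rose by 5.69 on the log2 scale (SE 0.53, FDR 9.38e-10), or by 6.55 by limma-voom. Mmp7, matrilysin, ran from 0 to 1.70 CPM in control and from 15.4 to 72.9 CPM in MCD livers and rose by 6.30 (SE 0.39, FDR 1.18e-12). A list of integrin chains, mostly of receptors for the RGD motif of proteins such as fibrillin and fibulin-5, was more mixed, with 3 of 8 higher and 1 lower. It includes Itga9, which is not an RGD-binding chain and was not called (log2 fold change 0.35). Itgb6, with 0 to 8 reads per control and 24 to 100 per MCD library, rose by 4.02 (SE 0.41, FDR 5.01e-09). Itga8 rose by 2.25 (SE 0.21, FDR 1.40e-09), and Itgb3 had a log2 fold change of -0.72 (SE 0.21, FDR 0.00478), which did not pass with control 4 and MCD 8 set aside (-0.50, FDR 0.0306) or without any 1 of 10 single libraries (control 3 and 4, MCD 2, 4, 5, 6, 7, 8, 11 and 12; FDR 0.0113 to 0.0155). Nor did Itgb3 pass with the replicate number as a block (-0.74, FDR 0.0164), with upper-quartile factors (-0.58, FDR 0.0243), with total counts alone (-0.40, FDR 0.123) or with no low-count filter (-0.69, FDR 0.0115). Among the named related genes, Fbn2, Hmcn1, Ltbp2, Ltbp3, Lox, Mmp7, Mmp12 and Itga8 share 0.63% to 11.5% of their exon bases with a gene on the opposite strand, and whether counting separated the strands there is not given.

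**Figure D5:**
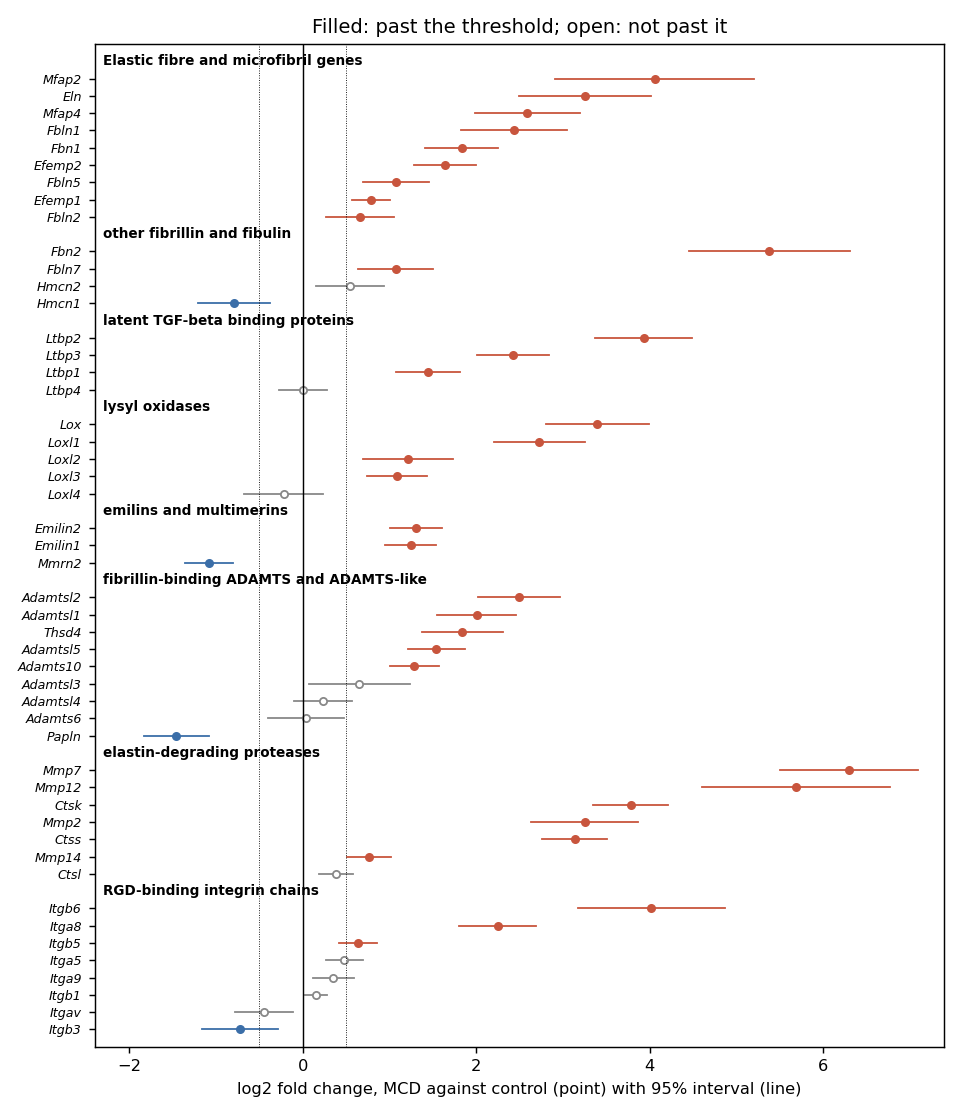
Fitted log2 fold change of MCD against control (x axis, points) with the 95% interval (lines) for the 9 tested members and the 40 tested genes of 7 related lists (y axis), filled red or blue where the gene passed the threshold upward or downward and open grey where it did not; dotted lines mark the log2 limit of 0.5. All 9 members lie to the right of the upper limit, from Fbln2 at 0.66 to Mfap2 at 4.06.

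Markers of cells that can produce or contain elastic fibres moved between the diets as well, and their part in the results was not tested. Counts of markers called stand beside 19.2% of all tested genes that rose and 19.1% that fell. The summed level of 8 portal fibroblast markers was 33.1 to 115 CPM in control and 170 to 404 CPM in MCD livers, and all 5 tested ones rose. Without Gsn, the most abundant of them, the sums were 11.97 to 40.7 and 79.5 to 167 CPM. Dpt, still in that sum, had a mean of 6.15 CPM in control and 58.6 CPM in MCD livers. For 10 hepatic stellate cell markers, Col1a1 among them, the sums were 275 to 578 and 577 to 875 CPM, with 5 higher and 1, Lrat, lower. Without the matrix genes Col1a1 and Dcn the sums of the other 8 overlapped, at 164 to 306 and 200.1 to 301 CPM. Of these 8, Pdgfrb, Hand2 and Des were called higher (log2 fold changes 1.69, 1.45 and 0.93) and Lrat lower (-0.93). Reln, Hgf, Rgs5 and Colec11 were not called. For 8 vascular smooth muscle markers the sums were 14.9 to 47.4 and 31.1 to 56.6 CPM, with 3 of 5 tested higher and 1, Myh11, lower. For 6 mesothelial markers they were 1.67 to 8.51 and 5.98 to 16.6 CPM, with 2 of 4 tested higher. All 6 cholangiocyte markers rose (30.1 to 146 and 453 to 906 CPM summed). Most of that sum was Spp1, which macrophages also express, and the other 5 summed to 3.71 to 14.9 and 41.5 to 98.1 CPM. Of the other lists, 5 of 7 endothelial markers fell (198 to 293 and 118 to 183 CPM), 4 of 5 Kupffer cell markers fell and 3 of 7 hepatocyte markers fell. No marker was at 0 in all libraries. Control 4, the liver with the highest control level of most members, also had the highest control sum of the portal fibroblast, stellate and smooth muscle lists, and MCD 8 had the highest MCD sum of the portal fibroblast, stellate and cholangiocyte lists, the last also without Spp1. MCD 8 also had the lowest MCD sum of the Kupffer cell list (81.3 CPM) and ranked 11th of 12 for the hepatocyte list. Its TMM factor, 1.26, was the highest of all libraries. With control 4 and MCD 8 set aside, all 9 tested members were still called higher.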

How the data were processed

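The authors deposited unnormalized read counts by Ensembl gene, with 1 column for each library. Per the submitters' processing notes, bcl2fastq, STAR 2.7.3a and the mm10 build were used. The study's methods name a strand-specific mRNA library kit, while the quantification they describe is for a human reference. For the mouse table the counting program, its annotation release and whether it used strand are not given in the sources used here, so it is open whether reads of overlapping genes on opposite strands were separated. Symbols, exon lengths and coordinates came from GENCODE mouse release 21 (GRCm38, the same build), which named 51745 of 56205 rows.

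Counts were analysed in R 4.3.3 with edgeR 4.0.16 (filterByExpr by diet, TMM factors, glmQLFit and glmQLFTest) over all 24 libraries with no covariate, and Benjamini-Hochberg FDRs were taken over 14109 genes. The limits, FDR 0.01 and absolute log2 fold change above 0.5, are those the study set for human liver. SEs were derived from the fold change and its F statistic. Biological variation (BCV) came to 26.8%. Pairs of libraries within a diet had a dispersion index of at least 11.7, where 1 is sampling noise, so none was counted as a repeat. Totals were 16388650 to 24915175 counts. TMM-corrected library sizes of 13213368 to 27513465 put the floor of 3 counts at 0.109 to 0.227 CPM, for counting error only.

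Alternatives were relative log expression and upper-quartile factors, total counts, no low-count filter, DESeq2 1.42.0, limma-voom (limma 3.58.1), a replicate block, a covariate made from sex-linked transcripts (used as a number, with no sex assigned), other thresholds, another pseudocount, the longest transcript as length, and leaving out each library. Setting aside control 4 and MCD 8 was added after seeing the data. On simulated counts for 14109 genes in this comparison, edgeR recovered 81 of 100 genes changed by 1 and 99 of 100 changed by 2 on the log2 scale, with 1 false call; DESeq2 recovered 88 and 99 (4 false) and limma-voom 82 and 98 (2 false). Permutation tests used 100000 resamples (smallest p 2e-05) or all 4096 sign flips, in Python 3.11.15 with numpy 2.4.6 and scipy 1.17.1. Intervals of ratio differences are 95% Welch intervals.

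The members, related lists, marker lists and tests were chosen with earlier results of these data known. Named were every member, the 2 genes of each related list with the largest called change in each direction, lists of 3 or fewer tested genes in full, and the 2 genes most like each member.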

Additional observations from a re-analysis of the deposited data

How the results depend on the processing

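The 9 members called higher stayed 9 under every alternative run except a log2 limit of 1, which left 7, and 0 were lower under each. No single library changed a member's call, and FDRs of single members stayed at or below 0.00979. Of the related genes, 4 were lower in the reported fit but 2 with total counts alone and 2 with a log2 limit of 1, and 25 were higher against 23 to 31. With total counts alone 4539 genes rose and 848 fell, against 2712 and 2688 with TMM factors, with upper-quartile factors 3261 and 1710, and the Hmcn1 and Itgb3 values no longer passed (-0.47, FDR 0.0777; -0.40, FDR 0.123). Itgb3 also did not pass with upper-quartile factors, no low-count filter, the replicate block (FDR 0.0164) or without any 1 of 10 libraries; the cause was not tested. Correlated member pairs ranged from 11 to 23 in control and from 8 to 24 in MCD livers when 1 library was left out (22 in each with all), and were 1 and 0 with control 4 and MCD 8 set aside. The replicate numbers of the titles were not taken to pair animals: correlations of deviations over the 12 numbers ran from -0.28 to 0.349, with 8 above 0.1 and a median of 0.233 against -0.0592 for unlike numbers, and 2 of 12 controls correlated best with their own number. With the replicate block 9 members were higher and 0 lower, and related genes were 27 higher and 3 lower. The log2 fold changes under the block were 3.47 for Eln and 4.55 for Mfap2. Depth limits Mfap5, which could not be tested, and the control side of Mfap2.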
